A study of Mus musculus with 48 samples.

Results

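The genes described here encode 3 groups of conjugating enzymes of phase II metabolism: the UDP-glucuronosyltransferases (UGT), the cytosolic sulfotransferases (SULT) and the soluble glutathione S-transferases (GST). They were chosen by gene symbol alone, as the Ugt1a, Ugt2a, Ugt2b, Ugt3a, Sult1 to Sult6 and Gst alpha, kappa, mu, omega, pi, theta and zeta genes, with pseudogenes left out. Of the 56748 gene identifiers in the deposited count tables, 64 met the rule: 21 UGT, 21 SULT and 22 GST genes. No library held a read for 7 of them (Ugt2a1, Ugt2a2, Sult1c1, Sult2a3, Sult2a4, Sult2a6 and Sult3a2).

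Bulk RNA-seq libraries came from 3 tissues of 23 male littermate mice: the liver, the brown fat (brown adipose tissue, BAT) and the white fat beside the epididymis (eWAT). The control mice (hepAGT+/+, called WT here) and mice lacking angiotensinogen in hepatocytes (hepAGT-/-, called KO) lived either at 20 to 22 °C, called RT, or in thermoneutral housing at 30 °C, called TN. Every mouse, the controls included, was fed a Western diet with 21% milk fat and 0.2% cholesterol during 12 weeks, so no group shows these enzymes on a standard diet. The 48 libraries form 12 groups of 4, which are 4 biological replicates of each genotype and housing temperature in each tissue. How the deletion was driven in hepatocytes is not given in the sources used here.

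UGT enzymes sit in the membrane of the endoplasmic reticulum and attach glucuronic acid, taken from UDP-glucuronic acid, to bilirubin, steroids, bile acids and drugs. SULT enzymes are cytosolic and transfer a sulfate group from the donor PAPS to phenols, steroids, thyroid hormones and bile acids. GST enzymes join the thiol of glutathione to electrophiles, among them products of lipid peroxidation. The conjugates are more soluble in water than their substrates and leave the cell through transporters of the ABC family. Liver is the main organ of all 3 reactions, and the nuclear receptors CAR and PXR, the aryl hydrocarbon receptor, NRF2 and HNF1 are known regulators of many of these genes.

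Many members are neighbours, and neighbours can share reads. On GRCm38, the build named in the submitters' processing notes, the 9 Ugt1a genes lie at chr1:88055388-88220002. Each has its own first exon and joins it to a set of common exons, so that the Ugt1a genes shared between 50.3% and 60.6% of their exon bases with other members. The 7 Ugt2b genes lie at chr5:86889767-87424203, the 7 mu GST genes at chr3:107895821-108044894, the 4 theta GST genes at chr10:75774115-75837424 and the 3 pi GST genes at chr19:4035407-4059569. How reads that fit several genes were counted is not given in the sources used here, so values of single Ugt1a genes, and of near-identical copies such as Gsta1 with Gsta2, Gstp1 with Gstp2, the Sult2a genes and the mu GST genes, are uncertain as to which copy the reads came from.

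Promoter windows in RefSeq were at hand for 56 of the 64 members, and the 250 bases before the start of each gene were searched, for members and for all genes alike. The core of the antioxidant response element (TGACNNNGC, on either strand), which NRF2 binds, was present in windows of 3 members (5.36%), against 11.5% of all 27025 genes with a window. The core of the xenobiotic response element (GCGTG, either strand), which the aryl hydrocarbon receptor binds, was present for 10 members (17.9%), against 30.9% of all genes. The HNF1 core (GTTAAT, either strand) was present for 14 members (25%), against 7.49% of all genes. Among these 14 were Sult2a3, Sult2a4, Sult2a6 and Sult3a2, which had no read in any library, and Sult2a5, with reads in 1 library. A match of so few letters is a description of the sequence and not a binding site. The 4 stretches that follow hold such a match and belong to genes whose values are described in liver or eWAT. Of these, Ugt1a6a and Ugt1a9 were called in no genotype or housing comparison by edgeR. They are the plus strand of GRCm38.p6, from RefSeq, and each ends at the base before the start of the gene. Capitals mark the HNF1 core in the Ugt1a genes and the antioxidant response element core in Gsta3. They come from chr1:88211859-88211958 (Ugt1a1), chr1:88134709-88134808 (Ugt1a6a), chr1:88070679-88070778 (Ugt1a9) and chr1:21240435-21240584 (Gsta3).
Ugt1a1: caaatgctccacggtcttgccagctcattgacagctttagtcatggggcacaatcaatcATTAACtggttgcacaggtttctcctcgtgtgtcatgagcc
Ugt1a6a: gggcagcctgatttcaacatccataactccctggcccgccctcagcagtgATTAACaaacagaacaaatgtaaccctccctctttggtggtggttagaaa
Ugt1a9: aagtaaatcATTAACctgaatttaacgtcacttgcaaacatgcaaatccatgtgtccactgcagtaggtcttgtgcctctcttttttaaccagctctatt
Gsta3: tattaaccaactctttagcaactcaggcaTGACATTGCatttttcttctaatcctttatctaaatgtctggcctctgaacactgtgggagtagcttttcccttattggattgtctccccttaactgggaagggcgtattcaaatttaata

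Library totals, in units of 1000000 counts, were 23.7 to 36.5 in liver, 25.3 to 39.4 in BAT and 28.7 to 43.7 in eWAT. Levels are given in CPM, the counts of a gene per 1000000 counts of its library. The targeted gene Agt was at 167 ± 26.8 CPM (SD, n = 4) in liver of KO mice at RT and 167 ± 33.8 at TN, against 368 ± 75.5 and 410 ± 86.5 in WT mice, with no overlap between genotypes. Hepatocyte, brown adipocyte and adipocyte markers were each highest in the tissue labelled for them. Several fat libraries also held transcripts of other tissues. The summed level of 14 hepatocyte markers ran from 12.4 to 3453 CPM in BAT and from 653 to 8306 CPM in eWAT, where Cyp2e1 alone was at 497 to 2708 CPM and Alb at 22.3 to 3109 CPM. In addition, 1 eWAT library (WT at RT, replicate 18) held 1217 CPM of 16 epididymis markers, against at most 24.5 CPM in the other 15. In bulk tissue, fewer cells of a type and less RNA per cell cannot be told apart.

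In liver 11 of the 64 members had no read in any of the 16 libraries, while others were abundant. Levels across tissues are CPM scaled by the TMM method over all 48 libraries, and are given as the mean of the 16 libraries of a tissue. The alpha GST Gsta3 was highest in liver at 2043 CPM, with libraries from 1471 to 2618 CPM. The mu GST Gstm1 followed at 1485 CPM, the bile acid and steroid sulfotransferase family gene Sult2a8 at 1108 CPM and Gstz1, an enzyme of tyrosine breakdown, at 1052 CPM. Among the UGT genes, Ugt2b36 was at 812 CPM, Ugt2b5 at 798, Ugt2b1 at 696 and Ugt1a1, the bilirubin-conjugating enzyme, at 241 CPM. Per kilobase of exon, the scale on which genes can be compared, liver Gstm1 led with 1008 CPM per kb, followed by Gsta3 with 470.4 and Ugt2b5 with 429.5 CPM per kb.

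The remaining liver sulfotransferases were led by the phenol sulfotransferase Sult1a1 at 274 CPM and Sult1d1 at 189 CPM, with Sult1b1 at 44.5 CPM. Sult1e1, the estrogen sulfotransferase, was at 1.37 CPM in liver. Sult3a1 had reads in 4 of the 16 liver libraries, with a highest level of 0.905 CPM, and none in either fat. Ugt2b38 was at 11.2 CPM in liver with a wide range of 2.35 to 26.0 CPM. The paralogs of 2 abundant GST genes were low: Gstp2 was at 2.21 CPM beside 463 CPM for Gstp1, and Gsta1 at 4.96 and Gsta2 at 32.2 CPM beside the 2043 CPM of Gsta3. Gstm3 was at 44.8 CPM and Gstk1, a mitochondrial and peroxisomal GST, at 144 CPM.

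**Figure D1:**
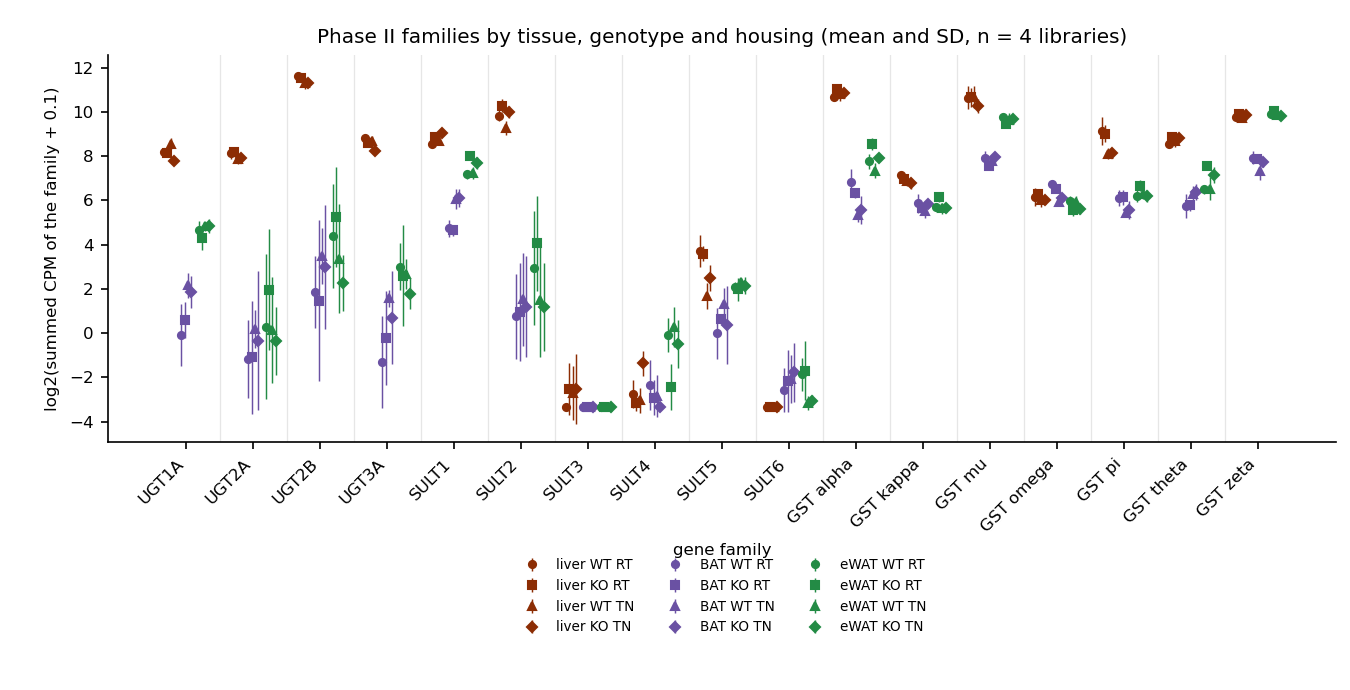
Summed CPM of each family (log axis) in the 12 groups, as the mean and SD of 4 libraries. Each tissue was scaled by the TMM factors of its own fit. Levels of different tissues are therefore not on a common scale here, unlike the levels across tissues given in the text. As plain means of CPM, which are not the plotted points, the Ugt2b genes sum to between 2524 and 3184 CPM in the 4 liver groups. They sum to between 5.58 and 76.1 CPM in the 8 fat groups, while the mu GST genes stay above 180 CPM in every group.

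In fat the order was different. In BAT Gstz1 was highest at 230.4 CPM, followed by Gstm1 at 124, Gsto1 at 80.9, Gsta4 at 64.7 and Gstp1 at 60.1 CPM. In eWAT Gstz1 was at 768 CPM, Gstm1 at 399, Gsta3 at 178, Gstm2 at 158 and Sult1a1 at 123 CPM. Gsta4 encodes the GST with high activity towards 4-hydroxynonenal, an aldehyde from oxidised lipid. Per kilobase of exon, Gstm1 led both fats with 84.5 CPM per kb in BAT and 271 in eWAT, and Gsta4 came next in BAT with 51.1 CPM per kb. Among the SULT genes of eWAT, Sult1e1 was at 27.2 CPM, with libraries from 9.93 to 55.3 CPM. Among the UGT genes of eWAT, Ugt1a6b was at 11.0 CPM (5.33 to 17.9) and Ugt1a7c at 7.20 CPM (3.21 to 11.1), narrow ranges beside the 0.05 to 32.1 CPM of Ugt2b5.

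**Figure D2:**
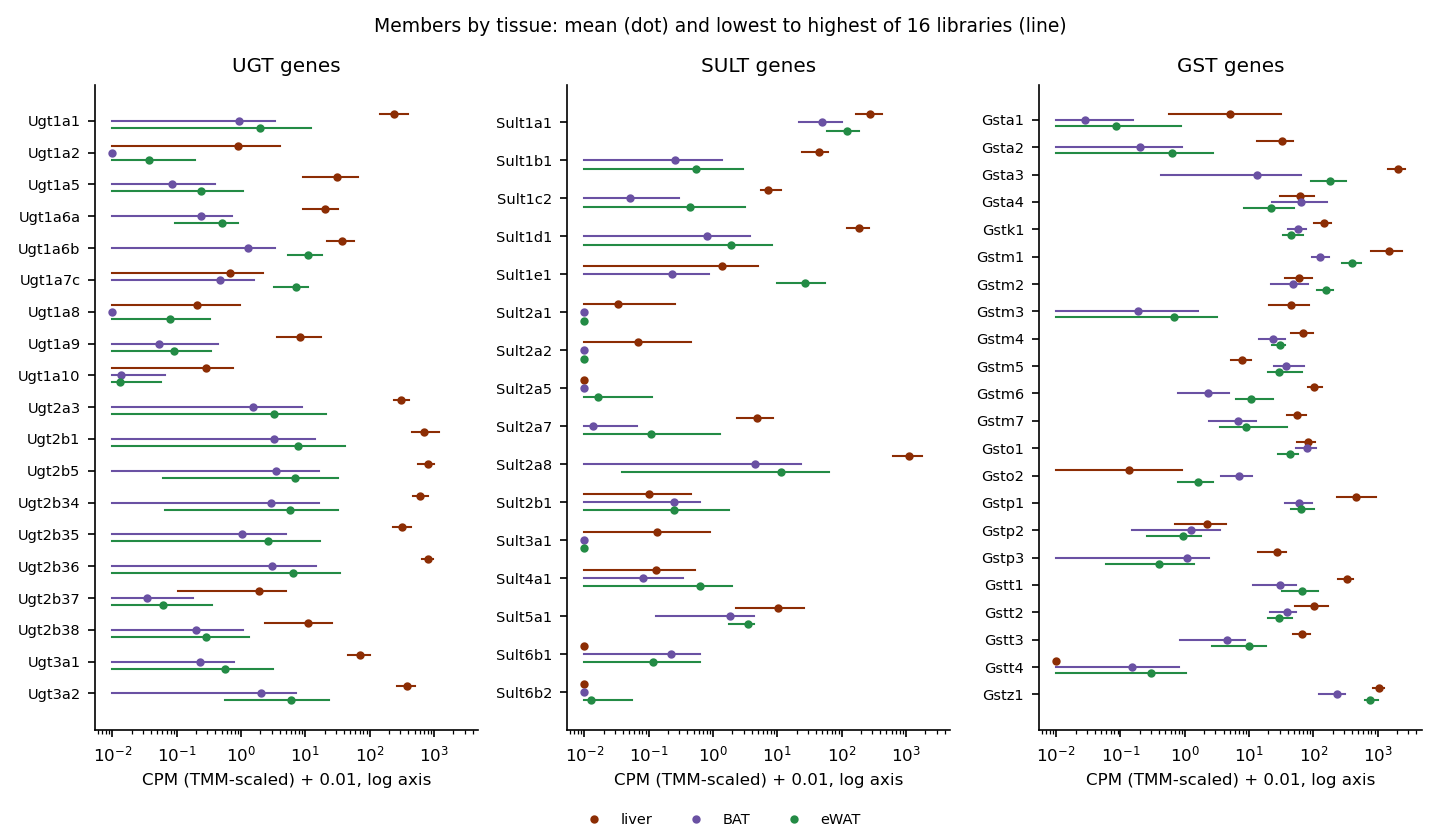
Mean (dot) and range (line) of CPM + 0.01 over the 16 libraries of each tissue on a log axis, 1 row per member. Most UGT rows are far to the right in liver, and Gsto2, Gstm5 and Sult1e1 are among the rows where a fat tissue is to the right of liver.

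Albumin, a hepatocyte transcript, moved with the UGT genes in fat. Alb ran from 2.73 to 1700.0 CPM in BAT and from 22.3 to 3109 CPM in eWAT, against 34597 to 67158 CPM in liver. Per 100 CPM of Alb, the summed Ugt2b genes came to a median of 5.62 CPM in liver, 5.41 CPM in BAT and 4.98 CPM in eWAT. Single libraries ran from 3.43 to 9.66 CPM in liver, from 0 to 16.5 in BAT and from 2.64 to 12.5 in eWAT. The mu GST genes, by contrast, came to a median of 2.63 CPM per 100 CPM of Alb in liver, 163 in BAT and 299.6 in eWAT. Fat-to-liver ratios were taken only for members with a mean of at least 1 CPM in liver. This leaves out members higher in fat, such as Ugt1a7c (0.658 CPM in liver, 7.20 in eWAT) and Gsto2 (0.124 in liver, 6.93 in BAT). The medians and counts that follow therefore cover liver-expressed members only. Over the 15 UGT genes compared, the fat-to-liver ratio divided by that of Alb had a median of 0.877 in BAT and 1.30 in eWAT, and it was under 3 for 13 and 11 genes. For the 20 GST genes compared the medians were 21.4 and 29.8, and 4 genes in each fat were under 3. The 8 SULT genes had medians of 1.03 and 5.34. Among the genes near the liver ratio were Ugt1a1 (0.721 in BAT and 1.06 in eWAT), Sult2a8 (0.740 and 1.34) and Gstm3 (0.768 and 1.96). Gsta3 was near it in BAT (1.18) but not in eWAT (11.1). Far above it in eWAT were Sult1e1 (2573), Gstm5 (478), Gstm2 (331), Sult1a1 (57.0) and Ugt1a6b (38.1). The ratios are a description with no test, and how much of the UGT reads in fat came with hepatocyte RNA was not tested.

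**Figure D3:**
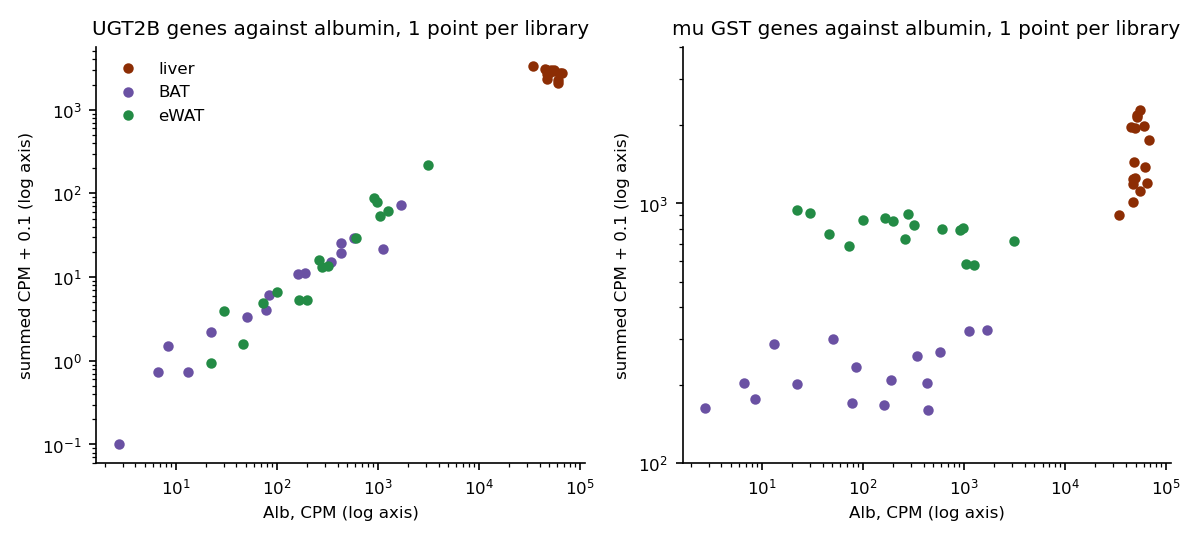
Summed CPM + 0.1 of the Ugt2b genes and of the mu GST genes against Alb CPM, both on log axes, with 1 point per library. The Ugt2b points of the 3 tissues lie broadly along a common diagonal, with medians of 5.62, 5.41 and 4.98 CPM per 100 CPM of Alb. Single libraries run from 3.43 to 9.66 in liver, 0 to 16.5 in BAT and 2.64 to 12.5 in eWAT. The mu GST sum of the fat libraries, 161 to 944 CPM, does not fall with Alb.

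The tissues were compared over all 48 libraries with edgeR's quasi-likelihood test, a gene being called at a Benjamini-Hochberg adjusted p under 0.05 and a difference of at least 2-fold. Of the 52 members tested, 42 were higher and 4 lower in liver than in BAT. Among all genes tested, 44.3% were called in that contrast, 19.9% higher and 24.3% lower. Against eWAT 40 members were higher and 8 lower in liver, with 48.7% of all genes called (22.4% higher, 26.3% lower). Between the fats 4 members were higher and 20 lower in BAT than in eWAT, with 33.1% of all genes called (15.0% higher, 18.0% lower). All 19 UGT genes tested were higher in liver than in BAT, with a median log2 difference of 7.84, against -0.08 over all genes. Of these, Ugt1a2 and Ugt1a8 had no read in any of the 16 BAT libraries and entered the test through other tissues. They could not come out lower in liver, and the size of their differences (7.77 and 5.14) depends on the prior count. Ugt1a10 and Ugt2b37 had mean BAT levels of only 0.0034 and 0.024 CPM. All 4 genes are included in the 42 and in the median. Leaving out the TMM factors moved the median of all genes by up to 0.52 on the log2 scale in these contrasts, and 45, 44 and 30 members were then called. Higher calls then made up 31.8% of all calls between liver and eWAT in place of 45.9%, and 28.2% between BAT and eWAT in place of 45.5%.

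A few members were lower in liver. Gsto2, an omega GST with dehydroascorbate reductase activity, had a log2 difference of -5.86 between liver and BAT and of -3.81 between liver and eWAT. The mu GST Gstm5 had differences of -2.19 against BAT and -1.88 against eWAT. Gstm2 (-1.39), Sult1e1 (-4.31) and Ugt1a7c (-3.47) were lower in liver than in eWAT. Sult6b1 and Gstt4 had no read in any of the 16 liver libraries and low levels in fat, up to 0.624 and 1.03 CPM. BAT exceeded eWAT for Gsta4 (log2 difference 1.49), Gsto2 (2.06), Gstp3 (1.01) and Sult6b1. Gsta4 was not called between liver and BAT (0.19, adjusted p = 0.249 in edgeR).

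Within liver, the first question was what loss of hepatocyte Agt did to the members at RT. No member of the 47 tested was called (edgeR, adjusted p under 0.05), where 0.0853% of all genes were. At an unadjusted p under 0.05 were 8 members, beside 10.2% of all genes, and DESeq2 called 1 member, Ugt1a6a. Ugt1a6a, a phenol-conjugating UGT that responds to the aryl hydrocarbon receptor, was at 20.3, 22.7, 26.4 and 28.3 CPM in KO liver and at 7.80, 10.7, 15.3 and 16.5 CPM in WT liver. The groups did not overlap, as held for 4 members in all and for 5.83% of all genes. Its log2 difference was 0.96 ± 0.20 (SE) with an adjusted p of 0.0797 in edgeR. Gstt2, a theta GST, was at 68.5 to 135 CPM in KO and 46.0 to 79.0 CPM in WT, a log2 difference of 0.67 ± 0.19 that was not called (edgeR, adjusted p = 0.202). The median difference over the members was -0.12, beside 0.02 over all genes. With library totals 3 of 9 calls over all genes were higher (33.3%), in place of 3 of 15 (20.0%), and no member was called.

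At TN 4 of the 47 members were called between KO and WT liver, 1 higher and 3 lower, or 8.51% of those tested beside 3.18% of all genes (1.34% higher, 1.85% lower). The 3 lower ones were UGT genes. Ugt1a1 was at 125, 136, 163 and 183 CPM in KO and at 212, 254, 268 and 339 CPM in WT. Every KO library was below every WT library. The log2 difference was -0.82 ± 0.15 (adjusted p = 0.00527, edgeR).

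Ugt1a6b, which like Ugt1a6a conjugates small phenols, was at 18.7, 22.4, 23.9 and 24.3 CPM in KO and at 28.8, 43.8, 44.6 and 47.5 CPM in WT. Again the groups did not overlap, and the log2 difference was -0.88 ± 0.16 (adjusted p = 0.00622, edgeR). Ugt3a2, which uses other UDP-sugars than glucuronic acid, was at 228, 244, 250.4 and 266 CPM in KO and at 295, 299.8, 372 and 425 CPM in WT, also without overlap. Its log2 difference was -0.49 ± 0.13 (adjusted p = 0.0334, edgeR). The neighbouring Ugt1a6a did not go the same way, with 13.7 to 23.5 CPM in KO and 14.1 to 15.3 CPM in WT. Ugt1a9 had 5.24 ± 2.40 CPM (SD, n = 4) in KO and 10.5 ± 3.79 in WT and was not called (adjusted p = 0.118, edgeR).

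Sult2a8 was the member called higher in KO liver at TN. It was at 859.8, 939.5, 969 and 1335 CPM in KO and at 541, 543, 562 and 862 CPM in WT. The groups met at 1 WT library, replicate 1, which lay just above the lowest KO library. The log2 difference was 0.71 ± 0.18 (adjusted p = 0.0335, edgeR). Gstt2 was also above WT in every KO library, at 95.1 to 146 against 65.0 to 73.4 CPM, without being called (adjusted p = 0.0556, edgeR). It was called with DESeq2, with library totals and in a fit of only the 8 libraries compared. That last fit also called Ugt1a5. Groups without overlap held for 5 members and for 12.5% of all genes.

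The firmness of these 4 calls differed. Ugt1a6b was called under all 22 alternative settings, with a highest adjusted p of 0.0461 in edgeR. Ugt1a1 was called under 21 and lost in 1, in which KO replicates 4 and 5, the libraries with the most macrophage and lymphocyte transcripts, were left out (adjusted p = 0.0538). Ugt3a2 lost its call without any 1 of the KO replicates 2, 4, 5 and 22 or the WT replicates 1 and 6, with adjusted p from 0.0557 to 0.123 in edgeR. It also lost it with library totals (adjusted p = 0.0664) and in a fit of only the 8 libraries compared. Sult2a8 lost it without KO replicate 4 or 22 or WT replicate 6, 7 or 24, with adjusted p from 0.0723 to 0.117. Without KO replicates 4 and 5 together, neither Ugt3a2 (adjusted p = 0.128) nor Sult2a8 (adjusted p = 0.0939) was called. Macrophage marker sums were 409 to 986 CPM in KO liver at TN and 265 to 419 CPM in WT, and their part in these differences was not tested. Scaling by library totals left 4 calls, with Gstt2 in the place of Ugt3a2, but moved the share of higher calls among all genes from 42.0% to 70.3%.

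Of 15 transporters of conjugates and organic anions, 2 fell and none rose in KO liver at TN, where 1.85% of all genes fell and 1.34% rose. Abcc3, which exports glucuronides into blood, fell from 436 ± 75.7 to 227 ± 12.6 CPM (SD, n = 4). Abcg2, an exporter of sulfated and other conjugates, fell from 161 ± 32.1 to 98.2 ± 11.4 CPM. Of 7 genes of UDP-glucuronic acid supply and turnover only Gusb, the lysosomal enzyme that splits glucuronides, changed (log2 difference -0.56 ± 0.15, adjusted p = 0.0434 in edgeR). Of 9 genes of PAPS supply and sulfate turnover only Impad1, a phosphatase of the PAPS by-product, changed, by -0.46 at TN and by -0.65 at RT. None of these other genes is a member, and no link between them and the members was tested.

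Housing temperature had no member called in liver. In WT mice 0.0227% of all genes were called, and 10 members had an unadjusted p under 0.05, beside 7.25% of all genes. In KO mice 0.114% of all genes were called, and 11 members had an unadjusted p under 0.05, beside 10.5% of all genes. DESeq2 called 4 members in WT (Gstm4, Gstp1, Sult5a1 and Ugt2b35) and 3 in KO (Gsta2, Gstp1 and Ugt2b35). The members nearest to a call were lower at TN.

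Sult5a1, a sulfotransferase of little-known substrate, was at 1.92, 2.85, 3.01 and 5.39 CPM in WT liver at TN and at 6.79, 12.0, 15.0 and 23.2 CPM at RT. The groups did not overlap, and the log2 difference was -2.12 ± 0.37 (adjusted p = 0.0503, edgeR). Leaving out any 1 of the KO libraries 19 at RT or 4 and 22 at TN, or of the WT libraries 15 at RT or 1 at TN, brought it under 0.05. In KO liver it was at 3.36 to 9.16 CPM at TN and 9.72 to 16.5 CPM at RT.

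Ugt2b35 was at 196 to 268 CPM at TN and 294 to 393 CPM at RT in WT liver, a log2 difference of -0.54 ± 0.13 (adjusted p = 0.2, edgeR). In KO liver it was at 201 to 247 CPM and 273 to 343 CPM, a difference of -0.47 ± 0.13 (adjusted p = 0.133). In neither genotype did the Ugt2b35 groups overlap. Gstp1, the abundant pi GST, was at 199, 244, 244 and 331 CPM at TN and 353, 382, 781 and 818 CPM at RT in WT liver. In KO liver it was at 214 to 318 CPM at TN and 351 to 656 CPM at RT, and the log2 differences were -1.20 ± 0.28 (adjusted p = 0.222) and -1.003 ± 0.28 (adjusted p = 0.154). The spread at RT was wide, with WT libraries 12 and 15 at 818 and 781 CPM and the other WT libraries at 353 and 382 CPM. Groups without overlap held for 4 members in WT, against 3.93% of all genes, and for 9 in KO, against 7.25% of all genes. All of them were lower at TN. The members' median differences were -0.15 in both genotypes, beside 0.01 over all genes.

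**Figure D4:**
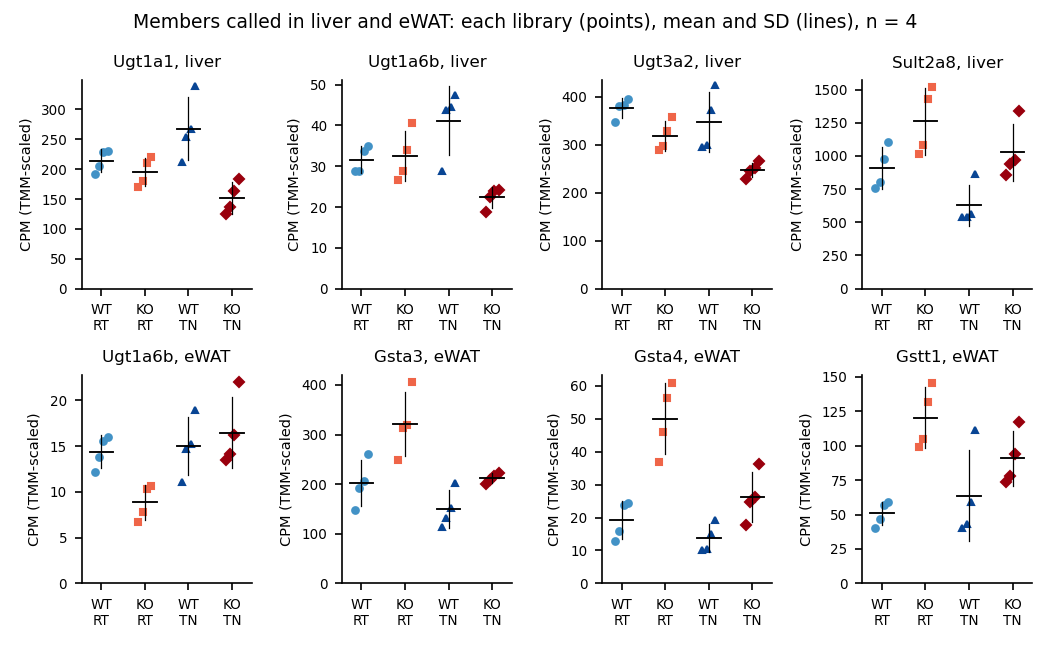
CPM of the members called in liver and eWAT, 1 point per library, with the mean and SD of each group of 4. Ugt1a1 in KO liver at TN (125 to 183 CPM) lies below all WT libraries at TN (212 to 339 CPM), and Gsta4 in KO eWAT at RT (36.8 to 60.8 CPM) lies above all WT libraries at RT (12.8 to 24.5 CPM).

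BAT at RT and at TN showed the broadest member changes. In WT mice 3 of 37 members tested were higher and 8 lower at TN, or 29.7% beside 32.5% of all genes (15.9% higher, 16.7% lower). In KO mice 4 were higher and 4 lower, or 21.6% beside 15.2% of all genes (6.64% higher, 8.52% lower). Both shares are near the background, so the number of calls is not particular to these enzymes. Sult1a1 and Gstt1 rose and Gsta4 fell at TN in both genotypes, with TMM factors and with library totals alike. Groups without overlap held for 9 members in WT, 3 higher and 6 lower, beside 27.2% of all genes, and for 10 in KO, 4 higher and 6 lower, beside 21.3%.

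Sult1a1 was at 40.9, 71.2, 74.3 and 82.7 CPM at TN and at 20.1, 21.8, 28.1 and 35.4 CPM at RT in WT BAT. In KO BAT it was at 49.4, 65.3, 65.5 and 93.3 CPM at TN and at 21.1, 21.3, 24.3 and 30.0 CPM at RT. Every TN library of either genotype was above every RT library. The log2 differences were 1.35 ± 0.23 (adjusted p = 0.000337) and 1.5 ± 0.23 (adjusted p = 0.000366, edgeR), and both calls held under all 23 alternative settings.

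Gsta4 was at 21.1, 21.1, 28.2 and 36.3 CPM at TN and at 58.9, 105, 132 and 154 CPM at RT in WT BAT. In KO BAT it was at 24.7, 26.5, 33.0 and 42.0 CPM at TN and at 65.6, 68.9, 74.1 and 78.3 CPM at RT. Again housing groups did not overlap. The log2 differences were -2.08 ± 0.26 (adjusted p = 2.71e-05) and -1.18 ± 0.25 (adjusted p = 0.00407, edgeR). The KO call was lost when the 4 BAT libraries with the most hepatocyte transcripts were left out (adjusted p = 0.129).

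Gstt1, a theta GST that acts on small halogenated compounds, was at 29.6 to 42.7 CPM at TN and 11.6 to 31.6 CPM at RT in WT BAT. In KO BAT it was at 31.7, 33.0, 46.4 and 49.5 CPM at TN and at 11.0, 11.2, 12.8 and 16.6 CPM at RT. The WT groups met at 1 library (replicate 15 at RT) and the KO groups did not overlap. The log2 differences were 0.79 ± 0.24 (adjusted p = 0.0185) and 1.64 ± 0.25 (adjusted p = 0.000269, edgeR). The WT call was lost without WT replicate 18 at RT (adjusted p = 0.0537) and without the 4 libraries richest in skeletal muscle transcripts (adjusted p = 0.122). Gstt3, its neighbour, was at 3.36 to 7.07 CPM at TN and 0.782 to 3.15 CPM at RT in WT BAT, a log2 difference of 1.39 ± 0.39 (adjusted p = 0.0107), and was not called in KO.

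Both omega GST genes were lower at TN in WT BAT. Gsto2 was at 3.42, 3.53, 3.86 and 4.86 CPM at TN and at 7.90, 8.76, 10.3 and 10.4 CPM at RT, a log2 difference of -1.25 ± 0.19 (adjusted p = 0.000135, edgeR). In KO BAT it was at 3.82 to 5.26 CPM at TN and 6.83 to 9.03 CPM at RT, a difference of -0.80 ± 0.19 (adjusted p = 0.00812). The KO call was lost without the 4 libraries richest in skeletal muscle transcripts (adjusted p = 0.0644) and without the 4 richest in hepatocyte transcripts (adjusted p = 0.0552). Neither genotype's Gsto2 groups overlapped. Gsto1 was at 49.3 to 69.5 CPM at TN and 84.3 to 105 CPM at RT in WT BAT, a difference of -0.75 ± 0.13 (adjusted p = 0.000405). In KO BAT the Gsto1 difference was -0.36 and was not called, and with library totals its sign turned (0.023).

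The mu class was divided. In WT BAT Gstm4 was lower at TN by 0.88 ± 0.15 and Gstm5 by 0.85 on the log2 scale, and in KO BAT Gstm4 was lower by 0.68. In KO BAT Gstm2 rose, from 20.7, 22.6, 23.1 and 25.1 CPM at RT to 54.0, 58.0, 59.1 and 59.1 CPM at TN, without overlap. That log2 difference was 1.33 ± 0.19 (adjusted p = 0.000153, edgeR), and it was called under all 23 alternatives. Gstm1 rose in KO BAT by 0.57 ± 0.18 (adjusted p = 0.0422), a call lost without any 1 of 9 libraries (adjusted p from 0.0519 to 0.121), which were all 4 KO libraries at RT, KO replicates 2, 3 and 5 at TN and WT replicates 17 and 18 at RT. It was also lost without the 4 libraries richest in skeletal muscle transcripts (adjusted p = 0.109) and without the 4 richest in hepatocyte transcripts (adjusted p = 0.453).

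Gstp3, a low pi GST, was at 0.150 to 0.648 CPM at TN and 1.74 to 2.20 CPM at RT in WT BAT (log2 difference -2.68 ± 0.80, adjusted p = 0.0162, edgeR). Its WT call was lost without replicate 7 at TN (adjusted p = 0.0523), and its KO call (-2.45, adjusted p = 0.0446) without any 1 of 13 of the 16 BAT libraries (adjusted p from 0.0508 to 0.113). Only the KO replicate 2 and WT replicates 6 and 24 at TN could be left out with the call kept. Gstp1 and Gstz1 were lower at TN in WT BAT, by 0.69 (adjusted p = 0.0181) and 0.59 (adjusted p = 0.0264). The Gstp1 call was lost without WT replicate 17 at RT or 1 or 6 at TN (adjusted p from 0.0598 to 0.0807), and that of Gstz1 without WT replicate 15 or 17 at RT or 1, 6 or 7 at TN (adjusted p from 0.08 to 0.126). The Gstp1 call was also lost without the 4 libraries richest in skeletal muscle transcripts (adjusted p = 0.111), and the Gstz1 call without the 4 richest in hepatocyte transcripts (adjusted p = 0.109). In fits of only the 8 libraries compared, Gstz1 in WT and Gstp3 in KO were not called.

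**Figure D5:**
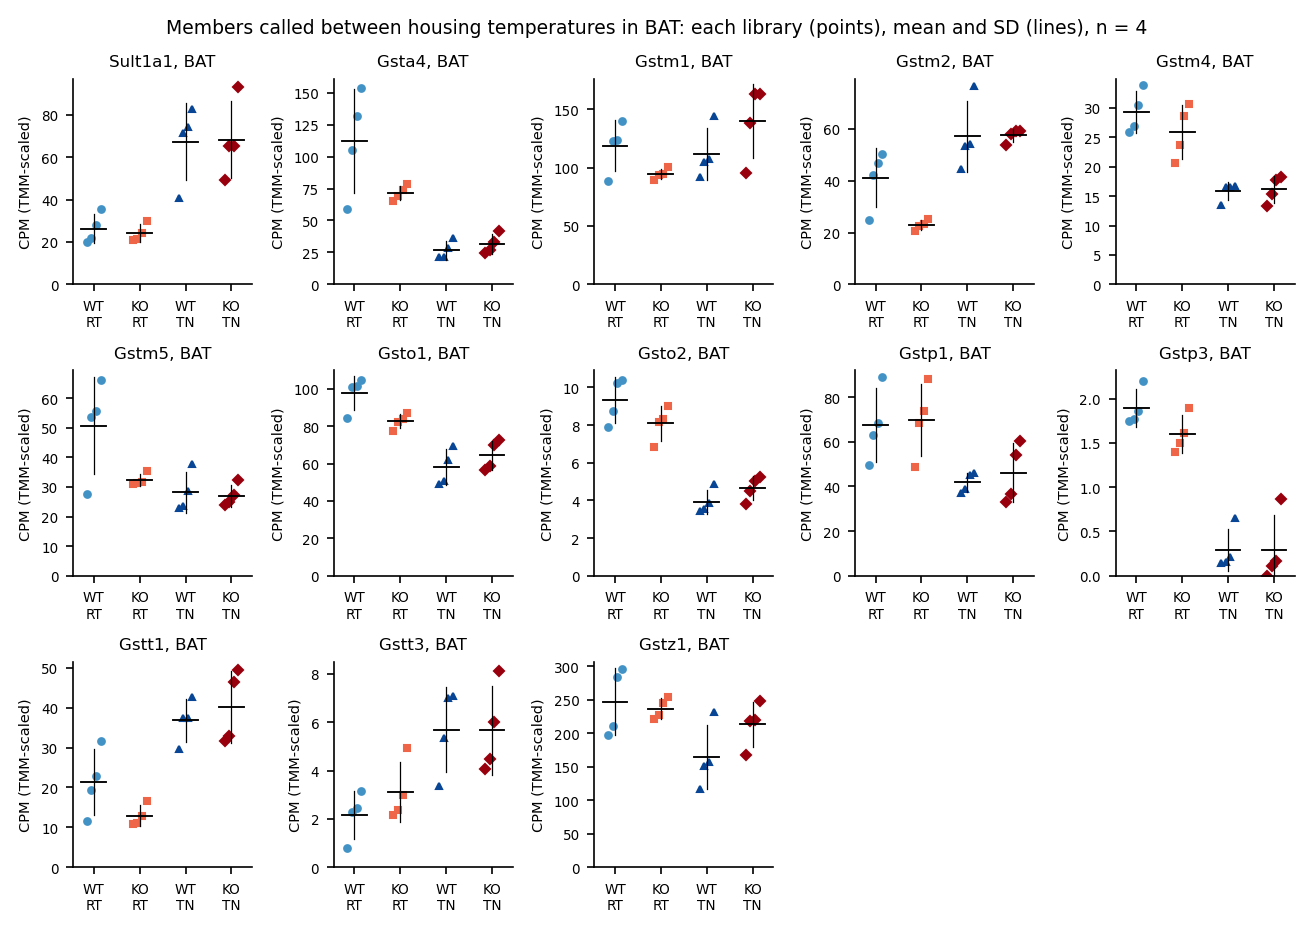
CPM of 13 members called in BAT for housing temperature, 1 point per library, with the mean and SD of each group of 4. Sult1a1 lies at 20.1 to 35.4 CPM in the 8 RT libraries and 40.9 to 93.3 CPM in the 8 TN libraries, and Gsta4 at 58.9 to 154 CPM and 21.1 to 42.0 CPM.

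Scaling mattered in BAT more than elsewhere. The TMM factors, which correct for a few genes taking much of a library, were 0.751 to 0.977 in the 8 RT libraries and 1.03 to 1.32 in the 8 TN libraries. With library totals alone the median difference of all genes moved by 0.54 in WT and 0.38 in KO on the log2 scale, and higher calls made up 87.2% and 86.1% of all calls in place of 48.8% and 43.8%. Of the members, 10 were then higher and 3 lower in WT, and 8 higher and 1 lower in KO. Gsta4 (-1.51), Gsto2 (-0.67) and Gstp3 (-2.08) remained lower in WT. Gstm4, Gstm5, Gsto1, Gstp1 and Gstz1 kept their sign without being called in WT, at -0.32, -0.28, -0.22, -0.14 and -0.05. Relative to the median of all genes they were at -0.97, -0.93, -0.87, -0.80 and -0.70. In KO BAT Gsta4 (-0.80) remained called lower, while Gstm4 (-0.30), Gsto2 (-0.42) and Gstp3 (-2.07) were no longer called.

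The UGT genes of BAT were low. All 13 tested had a positive TN minus RT difference in both genotypes, and none was called (edgeR with TMM factors), beside 2 with an unadjusted p under 0.05 in each genotype. That threshold was passed by 42.7% of all genes in WT and 27.9% in KO. With library totals Ugt1a6b, Ugt1a7c and Ugt2b38 were called higher at TN in WT, and Ugt1a6b in KO. In a fit of only the 8 libraries compared Ugt1a7c was called in WT, and DESeq2 called Ugt1a6b in KO. The medians of the UGT genes were 1.51 in WT and 0.92 in KO. Hepatocyte marker sums were 29.2 to 435 CPM at RT and 149 to 1194 CPM at TN in WT BAT, and 12.4 to 916 and 44.1 to 3453 CPM in KO BAT. The part of these transcripts in the UGT values was not tested. Over all members the medians were 0.78 and 0.77, beside 0.11 and 0.04 over all genes.

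Cell-type markers also differed with housing. Summed brown adipocyte markers were 10026 to 15288 CPM at RT and 5298 to 10897 CPM at TN, and 5 of 10 fell in each genotype. Of 11 macrophage markers tested 7 rose in each genotype, their sum going from 44.3 to 121 CPM at RT to 174 to 486 CPM at TN. Fibroblast markers rose for 6 of 9, from sums of 247 to 419 CPM up to 894 to 1797 CPM. None of 10 skeletal muscle markers was called, and their levels differed widely within each group. Their sums were 2.96 to 515 CPM at RT and 15.1 to 5834 CPM at TN in WT, and 15.1 to 4025 and 5.97 to 8019 CPM in KO. The part of these cells in the member differences was not tested.

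The lists of genes that serve conjugation are read beside the share of all genes that passed the test in BAT, which was 15.9% higher and 16.7% lower at TN in WT and 6.64% higher and 8.52% lower in KO. Of 14 NRF2 target genes outside the GSTs, 6 fell in WT and 7 in KO and none rose. Me1, Pgd and G6pdx, which make NADPH, fell by 3.00, 2.53 and 2.13 on the log2 scale in WT and by 2.97, 2.39 and 1.68 in KO. Srxn1, which repairs oxidised peroxiredoxins, fell by 1.43 and 1.36, and Gclm, a subunit of the first enzyme of glutathione synthesis, by 0.80 and 0.92. Me1, Pgd and G6pdx also belong to lipid synthesis, so the list holds genes with other known roles. These genes were not refitted with library totals, which move the median of all genes by 0.54 and 0.38. Of 16 glutathione genes 7 fell in WT, among them Gpx4, the lipid peroxide reductase (-1.13), and 2 fell in KO, Gclm and Gsr; none rose. Ugp2, which makes UDP-glucose, fell by 1.38 and 1.07. Papss2, a PAPS synthase, rose by 1.27 in WT; of the 9 PAPS genes 2 rose and 2 fell in WT, and 2 rose in KO. Of 15 transporters 4 rose in WT, and 1, Abcc4, fell in KO. Of 8 membrane-bound and other GST-related genes outside the rule, 2 rose and 2 fell in WT, and 2 rose and 1 fell in KO. Mgst2, a membrane-bound glutathione transferase, fell by 1.47 and 0.95, and Mgst1 by 0.82 in WT. Alox5ap, the activating protein of 5-lipoxygenase, rose by 1.17 and 1.92, Hpgds, a prostaglandin D synthase, by 1.96 in WT, and Mgst3 by 0.90 in KO.

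Genotype called no member in BAT. At RT 0.0887% of all genes were called. At an unadjusted p under 0.05 were 5 members and 19.4% of all genes, and DESeq2 called 1 member, Gstm2. Gstm2 was at 20.7 to 25.1 CPM in KO and at 24.8, 42.3, 46.8 and 50.5 CPM in WT, a log2 difference of -0.84 ± 0.19 (adjusted p = 0.0726, edgeR). Gstm5 was next, at 30.9 to 35.3 CPM in KO and 27.7 to 66.0 CPM in WT (-0.65, adjusted p = 0.127). In both genes the WT library of replicate 12 was far below the other 3, and without it 4 members were called, Gsta4, Gstm2, Gstm5 and Gstt1. Without WT replicate 24 at TN 1 member, Gstm2, was called. Gstm7 was the only member whose groups did not overlap (9.26% of all genes), at 7.70 to 12.4 CPM in KO and 4.48 to 6.78 CPM in WT, and it was not called (0.78, adjusted p = 0.176). With library totals the median of all genes moved by 0.15 in this comparison, and neither any member nor any other gene was called.

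At TN no gene was called between KO and WT BAT (0% of 18032 genes). At an unadjusted p under 0.05 were 1 member, Gstm7, and 5.24% of all genes, and DESeq2 called no member. Gstm7 was at 3.82 to 8.05 CPM in KO and 2.27 to 6.21 CPM in WT (0.63, adjusted p = 0.954, edgeR). Groups without overlap held for 1 member and 3.39% of all genes. The same 4 groups enter the housing and genotype comparisons of BAT, so their values are not independent of each other.

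In eWAT, 3 of 44 members were higher in KO than in WT mice at RT and none was lower, or 6.82% beside 4.34% of all genes (1.20% higher, 3.13% lower). All 3 were GST genes. Gsta4 was at 36.8, 46.1, 56.5 and 60.8 CPM in KO and at 12.8, 15.8, 23.7 and 24.5 CPM in WT. The groups did not overlap, and the log2 difference was 1.38 ± 0.27 (adjusted p = 0.00937, edgeR). It was called under all 22 alternative settings, with a highest adjusted p of 0.0406.

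Gstt1 was at 99.1, 105, 132 and 146 CPM in KO and at 40.5, 47.0, 57.0 and 58.8 CPM in WT, also without overlap. The log2 difference was 1.24 ± 0.28 (adjusted p = 0.0228, edgeR). The call was lost without KO replicate 10 or 19 or WT replicate 15 or 18 (adjusted p from 0.0658 to 0.0809), and with no low-count filter. Gsta3, the alpha GST that leads in liver, was at 249, 313, 319 and 406 CPM in KO and at 149, 193, 206 and 262 CPM in WT. The groups met at 1 pair of libraries, and the log2 difference was 0.67 ± 0.18 (adjusted p = 0.0448, edgeR). That call was lost without any 1 of KO replicates 10, 16 and 19 at RT, WT replicates 12, 15 and 18 at RT or KO replicates 3 and 21 at TN (adjusted p from 0.0533 to 0.119). The Gsta3 call was also lost with no low-count filter and in a fit of only the 8 libraries compared. From the liver ratio of Gsta3 to Alb, the albumin reads of these libraries would bring 2.46 to 105 CPM of Gsta3 in KO and 1.02 to 33.4 CPM in WT.

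Other members had groups without overlap and were not called. Sult1a1 was at 207, 212, 217 and 223 CPM in KO eWAT and at 73.7, 127, 128 and 147 CPM in WT at RT (0.85 ± 0.25, adjusted p = 0.0665, edgeR). Gstt2 (0.66, adjusted p = 0.0519) and Gstt3 (1.25, adjusted p = 0.0796) went the same way, as did Gstk1 (0.44, adjusted p = 0.0796) and Gstp1 (0.49, adjusted p = 0.0947). Ugt1a6b was lower, at 6.68 to 10.6 CPM in KO and 12.1 to 16.0 CPM in WT (-0.70, adjusted p = 0.0531). In all 9 members had groups without overlap, 7 higher and 2 lower, beside 10.9% of all genes. The 4 theta genes summed to 189 ± 18.3 CPM in KO and 90.3 ± 12.3 CPM in WT (SD, n = 4). The Sult1 genes summed to 254 ± 10.2 and 146 ± 20.3 CPM. The median difference over the members was 0.32, beside -0.00 over all genes.

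The count depended on single libraries. Without KO replicate 10, KO replicate 19 or WT replicate 18 at RT 1 member was called, Gsta4, as also without both WT replicate 18 and KO replicate 16, the libraries richest in epididymis and hepatocyte transcripts. It rose to 5 without KO replicate 5 or WT replicate 23 at TN and to 7 without WT replicate 8 at TN. DESeq2 called 10 members, 8 higher and 2 lower. Of 12 macrophage markers 4 were lower in KO eWAT at RT, with sums of 573 to 770 CPM against 782 to 1134 CPM in WT, and their part was not tested. Of the genes around conjugation, Papss2 (0.71) and Keap1, the repressor of NRF2 (0.34), were higher in KO. Gusb (-0.68) and the NRF2 targets Hmox1 (-0.98) and Ephx1 (-1.19), 2 of 15 on that list, were lower.

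At TN no member was called between KO and WT eWAT, where 0.586% of all genes were. At an unadjusted p under 0.05 were 7 members and 13.7% of all genes, and DESeq2 called 1 member, Gsta4. Gsta4 was at 17.7, 24.7, 26.3 and 36.2 CPM in KO and at 10.2, 10.4, 14.9 and 19.1 CPM in WT, so that 1 KO library lay within the WT range. The log2 difference was 0.94 ± 0.26 (adjusted p = 0.108, edgeR). Gstt2 was above WT in every KO library, at 30.2 to 58.0 against 24.4 to 26.8 CPM (0.58, adjusted p = 0.153). Without WT replicate 8, 2 members were called, Gstt1 and Gstt3. Groups without overlap held for 2 members and 9.51% of all genes. With library totals 22 of 51 calls over all genes were higher (43.1%), in place of 33 of 111 (29.7%). Of the genes around conjugation, the NRF2 targets Hmox1 (-1.03) and Srxn1 (-0.57) and the leukotriene C4 synthase Ltc4s (-0.74) were lower in KO.

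Housing temperature called no member in WT eWAT and no other gene (0%). At an unadjusted p under 0.05 were 2 members and 6.99% of all genes, and DESeq2 called no member. The mu GST Gstm6 was at 7.88 to 10.1 CPM at TN and 11.6 to 29.8 CPM at RT, a log2 difference of -0.997 ± 0.26 (adjusted p = 0.295, edgeR). It was the 1 member whose groups did not overlap, beside 4.10% of all genes. The library at 29.8 CPM was replicate 18 at RT, the one with epididymis transcripts. Gsta3 had a difference of -0.43 (adjusted p = 0.629).

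In KO eWAT 1 of 44 members was called between TN and RT, or 2.27% beside 1.74% of all genes (1.02% higher, 0.718% lower). Ugt1a6b rose from 6.68, 7.82, 10.3 and 10.6 CPM at RT to 13.4, 14.2, 16.2 and 22.0 CPM at TN. The groups did not overlap, as held for 5 members and 9.25% of all genes, and the log2 difference was 0.89 ± 0.20 (adjusted p = 0.0337, edgeR). The call was lost without KO replicate 10 or 19 at RT or 3 or 4 at TN (adjusted p from 0.0793 to 0.147), and in a fit of the 8 libraries compared no member was called. The KO libraries at RT are the same as in the genotype comparison, where Ugt1a6b was at -0.70. Library totals moved the share of higher calls among all genes from 58.8% to 76.0%. Of 12 macrophage markers 3 were higher at TN, with sums of 967 to 1107 CPM against 573 to 770 CPM at RT. Ugt1a7c, its neighbour, was at 3.96 to 8.26 CPM at RT and 6.48 to 12.8 CPM at TN and was not called (0.89, adjusted p = 0.123, edgeR). The Ugt2b genes summed to 76.1 ± 88.4 CPM at RT and 6.16 ± 5.00 CPM at TN (SD, n = 4), and none of them was called. The hepatocyte marker sums of these libraries, which include Cyp2e1, were 2488 to 8306 CPM at RT and 1165 to 2106 CPM at TN, and their part in the Ugt2b values was not tested.

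Whether the genotype difference itself changed with housing was tested by the interaction term, which called no gene in liver, BAT or eWAT (0% in each) with edgeR and no member with DESeq2. At an unadjusted p under 0.05 were 4 members in liver (7.33% of all genes), 4 in BAT (10.2%) and 5 in eWAT (7.60%). In liver the lowest were Ugt1a6b (-0.92 ± 0.23, adjusted p = 0.419) and Ugt1a1 (-0.68 ± 0.21, adjusted p = 0.5). In BAT they were Gstm2 (0.86 ± 0.26, adjusted p = 0.443) and Gstm1 (0.65 ± 0.26, adjusted p = 0.47). In eWAT Ugt1a6b had an interaction of 0.84 ± 0.28 (adjusted p = 0.571). The lower Ugt1a1 and Ugt1a6b of KO liver at TN were thus not shown to differ from the differences at RT, and the larger Gstt1 and smaller Gsta4 changes of KO BAT were not shown to differ from those of WT.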

How the data were processed

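RNA from snap-frozen tissue was sequenced as paired-end libraries on an Illumina NovaSeq instrument, per the labels' protocols. The values are raw counts per gene, deposited by the authors, 1 table per library. The submitters' processing notes name fastp, STAR 2.6.1d, featureCounts 1.5.0-p3 and the build GRCm38. The annotation release, the strand setting and the handling of reads that fit several genes are not given in the sources used here. Identifiers were named from a gene table, and 52073 of 56748 (91.8%) had a symbol.

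Each tissue was fitted on its 16 libraries with edgeR 4.0.16 in R 4.3.3 (scaling by TMM, low genes removed by filterByExpr at a minimum count of 10, robust quasi-likelihood tests, prior count 0.125), and adjusted p-values cover all genes tested. Tissues were compared over 48 libraries with the same test and a 2-fold rule. The CPM values within a tissue, Agt included, use that fit's TMM factors, and marker sums and Alb use plain library totals. Fits were tested on simulated data. Alternatives were RLE scaling, no low-count filter, DESeq2 1.42.0, only the 8 libraries compared, each library left out and, for tissues, the animal number as a block; library totals without TMM factors and leaving out libraries with transcripts of other tissues were added after seeing the data. Each p-value sets a difference against the spread between libraries within groups, estimated over the 4 groups of a tissue. For the tissue contrasts the spread was estimated over all 12 groups. There the main fit treated the 48 libraries of 23 animals as independent.

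The members and lists were chosen with earlier results of these data known. Named members were the called ones (up to 6 per direction, with a mean of at least 1 CPM) and the 3 highest per tissue. So were the 2 of lowest p where none was called, and a fixed set of well-known enzymes. Ugt1a5, Ugt1a9, Ugt1a7c, Ugt2b36 and pathway genes outside that set were named after their values were seen, as were others given for groups without overlap.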

Additional observations from a re-analysis of the deposited data

Results flagged for a closer look

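In 160 groups of 4 libraries (40 pairs of a named member and a tissue), the highest or lowest library stood apart by Dixon's test 10 times. The pairs were members called or of lowest p in these data, with others added by hand. The rate of about 1 in 20 that chance gives holds for groups not picked by their values. It is therefore no measure for these 10. In eWAT, Gstm7 was at 49.0 CPM in WT replicate 18 at RT, the library with epididymis transcripts, against 5.77 to 6.69 CPM in the other 3. Sult1e1 was at 48.2 CPM in WT replicate 23 at TN, against 19.9 to 24.3 CPM. In KO replicate 5 at TN, Gstt2 was at 58.0 CPM against 30.2 to 32.3 CPM, and Ugt1a7c at 6.48 CPM against 11.9 to 12.8 CPM. In BAT, Gstm4 was at 13.5 CPM in WT replicate 24 at TN, against 16.6 to 16.8 CPM, and Gstm7 at 12.4 CPM in KO replicate 10 at RT, against 7.70 to 8.30 CPM. Low reads gave 0.648 CPM of Gstp3 in WT replicate 6 at TN, against 0.150 to 0.214 CPM, and 0.110 CPM of Sult2b1 in KO replicate 3 at TN, against 0 in the others. In liver, Sult2a8 was at 862 CPM in WT replicate 1 at TN, against 541 to 562 CPM, and Gstm4 at 75.0 CPM in KO replicate 10 at RT, against 56.2 to 58.7 CPM.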

How the results depend on the processing

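Of 2680 results of single members under alternatives, 88 lost a call, 91 gained one and 1 changed sign: Gsto1 for housing in KO BAT, at 0.023 with library totals. Counts of called members that moved by over 1.5 times were as follows. In liver, genotype at RT gave 1 with no filter and 1 with DESeq2; genotype at TN gave 1 without the 2 libraries rich in immune transcripts; housing in WT gave 1 with library totals, 1 with no filter, 4 with DESeq2 and 1 without those 2 libraries; housing in KO gave 3 with DESeq2. In BAT, genotype at RT gave 1 with no filter, 1 with DESeq2 and 1 without the 4 libraries rich in muscle transcripts, and housing in KO gave 5 without the 4 rich in hepatocyte transcripts. In eWAT, genotype at RT gave 10 with DESeq2, 5 in the 8 libraries compared and 1 without the 2 libraries with other tissue; genotype at TN gave 1 with DESeq2; housing in KO gave 7 with DESeq2, 0 in the 8 libraries and 2 without the 2 libraries. The causes were not tested. Leaving out each library gave, for genotype at RT, genotype at TN, housing in WT and housing in KO, 0 to 1, 2 to 5, 0 to 1 and 0 in liver, 0 to 4, 0, 9 to 12 and 6 to 8 in BAT, and 1 to 7, 0 to 2, 0 and 0 to 4 in eWAT; interactions stayed at 0. For tissues it gave 44 to 47, 47 to 49 and 20 to 28.

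The tissues of 1 animal share its number, while genotypes and temperatures share none. Deviations of same-numbered libraries had correlations of -0.24 to 0.12 (median 0.01) over 35 pairs, beside -0.23 to 0.22 over 157 other pairs, so the numbers do not visibly pair the libraries. The replicate block gave 45, 46 and 17 called members for liver against BAT, liver against eWAT and BAT against eWAT, beside 46, 48 and 24. Depth limits members under about 1 CPM, such as Gstp3 in BAT.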
